A study of Mus musculus with 6 samples.

Results

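Isolated SMAD1/5 sites that appeared in mouse embryonic stem cells (ESCs) under LIF+BMP-4 but not under LIF+serum numbered 7378, out of 18386 merged ESC regions (40.1%). The members were chosen by measured values, namely the presence or absence of peaks. Overlapping or touching peaks of both ESC lists were merged, and a region was kept when it held LIF+BMP-4 peaks only and its edge lay over 10 kb from every region with peaks of both media. Another ESC region of some kind lay within 10 kb of 2126 of these 7378 sites (28.8%). The sites are called isolated BMP-4-only regions here, a name that refers only to distance from regions with peaks of both media. They are set beside 1635 BMP-4-only regions within 10 kb of a shared region, 5503 shared regions with peaks of both media, and 3870 LIF+serum-only regions. Of all merged ESC regions, 49.0% held a LIF+BMP-4 peak and no LIF+serum peak, and of those 9013 regions 81.9% were isolated. Since the rule fixed both the medium and the distance, these counts are a description. The number also moves with list length: it was 3929 when the LIF+BMP-4 list was reduced to the length of the LIF+serum list, and 2707 when both lists held only peaks scoring 100 or more.

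Chromatin immunoprecipitation with sequencing (ChIP-seq) recovered DNA bound by SMAD1/5, using an antibody that the labels name as anti-Smad1. The ESCs were E14 cells, an established mouse line, kept either with LIF (leukaemia inhibitory factor) and fetal bovine serum or with LIF and 10 ng/ml BMP-4 in basal medium such as N2B27 or ESGRO Complete. Both ESC groups therefore received LIF, and the groups differed in basal medium as well as in serum and added BMP-4. ES-derived epiblast stem cells (ESD-EpiSCs), maintained with FGF2 and Activin A, were given 10 ng/ml BMP-4 for 1.5 h or for 24 h. Each condition was 1 library, so the spread between replicates is unknown and nothing below is tested for significance. The lists held 9387 peaks for LIF+serum, 14696 for LIF+BMP-4, 225 for ESD-EpiSCs at 1.5 h and 133 at 24 h. Their median peak widths were 811, 500, 123 and 102 bp, in that order, so the ESD-EpiSC lists were both shorter and made of narrower peaks. The files hold peaks rather than reads, so depth is unknown, a missing peak is not a site without binding, and the cell types could not be checked against marker genes.

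Bone morphogenetic proteins (BMPs) bind serine/threonine kinase receptors, which phosphorylate SMAD1, SMAD5 and SMAD9. The phosphorylated SMADs join SMAD4, enter the nucleus and bind DNA, commonly together with factors that are particular to the cell type. In mouse ESCs, BMP-4 combined with LIF can replace serum in maintaining the naive pluripotent state, in part through Id genes. In the primed state represented by EpiSCs, BMP signalling instead favours differentiation. Positions below are in the mm9 build and carry no gene names, because the gene tables used here belong to another build. For the same reason no sequence is printed, and known loci were not assigned.

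Isolated BMP-4-only regions were mostly weak calls of the LIF+BMP-4 list. The score is the authors' own value per peak, whose scale is not stated, and it ranks peaks within 1 list. The isolated regions scored 50.0 at the lowest, 66.43 at the median and 340.5 at the highest, with an interquartile range of 56.28 to 85.79. Peaks in shared regions had a median of 104.1 and reached 2170, and BMP-4-only regions near shared ones had a median of 70.40. A score of 100 or more was reached by 1084 of the 7378 isolated regions (14.7%, exact binomial 95% interval 13.9 to 15.5). The corresponding share was 30.0% over all regions with a LIF+BMP-4 peak, 17.8% near shared regions and 54.0% (52.7 to 55.4) in shared regions. Intervals cover counting error over regions of a single library only. Because the score comes from the list that chose the members, these shares describe the selection.

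The isolated regions gave way to shared regions as the score rose. Among regions with a LIF+BMP-4 peak scoring 50 to 60, 69.5% (68.0 to 71.0) were isolated BMP-4-only and 16.9% (15.7 to 18.1) were shared. At 100 to 150 the shares were 34.0% (32.2 to 35.9) and 56.8% (54.8 to 58.7). At 200 or more, 50 of 915 regions (5.46%, 4.08 to 7.14) were isolated and 858 (93.8%) were shared. The best isolated region ranked 223 in the LIF+BMP-4 list, and the median rank of the group was 9238 of 14696. Scores ran on closely across the limit of 100. The last regions above it scored 100.05 (chromosome 5 at 66385319) and 100.08 (chromosome 6 at 95060093), and the first below it scored 99.98 (chromosome 4 at 81075526) and 99.97 (chromosome 13 at 64035090).

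**Figure D1:**
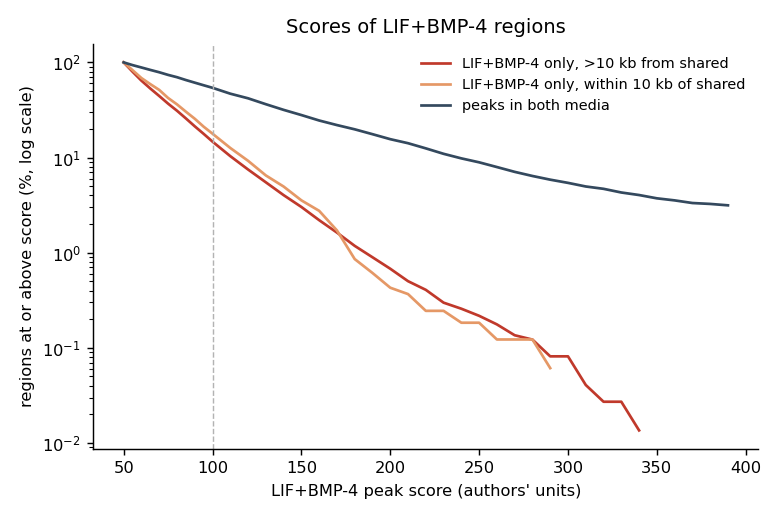
Share of regions (log scale) at or above each LIF+BMP-4 score, for isolated BMP-4-only regions, BMP-4-only regions within 10 kb of a shared region, and shared regions; the dashed line marks 100. At 100 the curves stand at 14.7%, 17.8% and 54.0%, and the isolated regions end at 340.5.

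The 12 highest-scoring isolated regions lay on 8 chromosomes. None carried an ESD-EpiSC peak, but such peaks were rare: 25 of all 915 regions scoring 200 or more had one (2.73%). The highest isolated region was on chromosome 4 at 150518444 to 150519231, with a score of 340.52. It was 788 bp wide, 60.7 kb from the nearest shared region and 510 kb from the nearest LIF+serum-only region. Another isolated region lay only 2.33 kb away. The second, on chromosome 2 at 77250487 to 77251112 (score 331.64), was 297 kb from a shared region and 242 kb from a LIF+serum-only one. The third, on chromosome 11 at 110205773 to 110206314 (316.81), had its nearest LIF+serum-only region at 675 kb. None of the 3 lay within 60 kb of a region with a LIF+serum peak.

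Chromosome 9 held the fourth and the fifth of these regions. The fourth, at 31013658 to 31014178 (score 308.02), was 14.4 kb from a shared region. The fifth, at 116548150 to 116549424 (306.22), was 1275 bp wide and 211 kb from a shared region. Chromosome 8 held the sixth, at 109420753 to 109421494 (304.86), and the eighth, at 123623158 to 123623826 (283.48), with another isolated region 4.07 kb and 6.09 kb away. The seventh was on chromosome 10 at 126675264 to 126675818 (285.8). Chromosome 1 held the ninth (193736643 to 193737191, 283.09), the tenth (121201653 to 121202529, 270.08) and the twelfth (9619825 to 9620443, 268.56). The eleventh, on chromosome 5 at 151621995 to 151622672 (269.49), was the most remote of the 12, at 1592 kb from a shared and 1564 kb from a LIF+serum-only region.

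Regions scoring 200 or more were 50 in number, on 19 chromosomes, with 8 of them on chromosome 1. They were 355 to 2095 bp wide and lay 10.5 to 3620 kb from the nearest shared region. Another isolated region lay within 10 kb of 18 of the 50 (36.0%). That share was 24.8% among the 1084 regions scoring 100 or more, which include the 50, and 20.3% among the 6294 below 100. No interval was computed for these shares, and neighbouring regions can count each other, so a trend with score was not tested. Median distance to a shared region was 109 kb for regions scoring 100 or more and 103 kb for the others, and the distances to the nearest LIF+serum-only region were 133 kb and 131 kb. For the 50 regions scoring 200 or more these medians were 116 kb and 234 kb, for which no interval was computed. A LIF+serum-only region lay within 10 kb of 4 of the 50 (8.00%), against 9.63% of the regions below 100.

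Every isolated region consisted of a single LIF+BMP-4 peak, since peaks within that list neither overlap nor touch. The widths ran from 204 bp to 2095 bp, with a median of 455 bp and an interquartile range of 376 to 549 bp. LIF+BMP-4 peaks in shared regions had a median of 565 bp and those near shared regions 498 bp. Higher-scoring isolated peaks were wider (Spearman rho 0.50 over 7378 peaks of 1 library, a description), with a median of 589 bp at scores of 100 or more and 437 bp below. Within score classes the isolated peaks were still narrower than the shared ones, by smaller margins. At 50 to 60 the medians were 387 and 415 bp, at 70 to 100 they were 494 and 519 bp, and at 200 or more 744 and 763 bp. The narrowest isolated peak lay on chromosome 12 at 115703133 to 115703336 (204 bp, score 67.56), and the widest on chromosome 9 at 123842849 to 123844943 (2095 bp, score 254.51).

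The nearest shared region was a median of 103 kb away, with an interquartile range of 38.1 to 269 kb. The distance was under 20 kb for 822 isolated regions (11.1%) and over 500 kb for 944 (12.8%). The closest to the limit were regions at 10002 bp (chromosome 11 at 100179768 to 100180272, score 69.81) and 10005 bp (chromosome 1 at 135122490 to 135122948, score 134.58). The first regions excluded lay at 9999 bp (chromosome 2 at 73596035, score 59.74) and 9990 bp (chromosome 15 at 97944896, score 117.92). The most remote were 3 regions on chromosome X, led by 35419551 to 35419917 at 14282 kb (score 59.56). Isolation was about as frequent among sites of the other medium: 81.6% (80.3 to 82.8) of LIF+serum-only regions lay over 10 kb from a shared region, against 81.9% (81.0 to 82.7) of BMP-4-only regions.

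Peaks farther from shared regions were narrower but scored about the same. Median width was 500.5 bp (95% interval of the median 487 to 511) at 10 to 20 kb from a shared region, 467 bp (458 to 476) at 50 to 100 kb and 412 bp (404 to 422) beyond 500 kb. The median score at the same distances was 67.59 (65.56 to 69.81), 66.24 (65.11 to 68.12) and 67.38 (65.55 to 68.88). The share of regions scoring 100 or more was 16.4%, 14.3% and 13.8%. Over all isolated regions, Spearman rho with distance was -0.17 for width and -0.0062 for score. The narrowing was present among weak and strong peaks alike. It went from 439 to 371 bp between the nearest and the farthest class for scores under 70, and from 614 to 548 bp for scores of 100 or more. Without chromosomes 8 and X, which differ in width as described further on, the medians were 493.5 bp in the nearest and 417 bp in the farthest class.

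**Figure D2:**
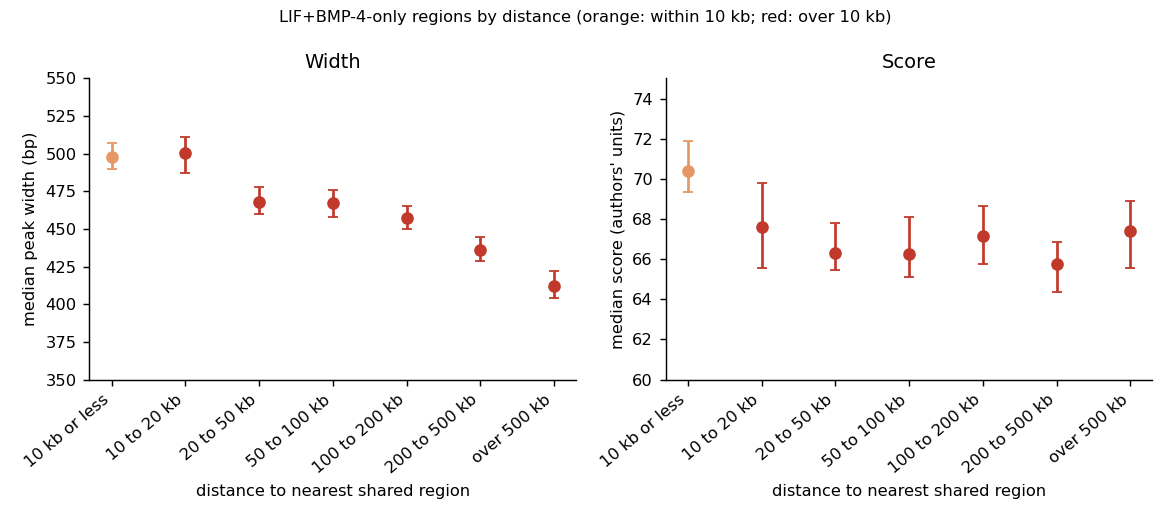
Median peak width (left, bp) and median score (right, authors' units) of BMP-4-only regions by distance to the nearest shared region; bars are exact 95% intervals of the median over regions, and neither axis starts at 0. Width goes from 500.5 bp at 10 to 20 kb to 412 bp beyond 500 kb, while median scores of the isolated regions stay between 65.76 and 67.59.

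Some isolated regions lay next to LIF+serum-only peaks, which the rule permits. A LIF+serum-only region lay within 1 kb of 122 of the 7378 (1.65%, 1.38 to 1.97) and within 10 kb of 730 (9.89%, 9.22 to 10.6). In the 122 close pairs the median gap was 412 bp. The LIF+BMP-4 peaks of these pairs had a median score of 69.28 and the LIF+serum peaks one of 63.53, each on the scale of its own list. The smallest gap was 22 bp, on chromosome 4 at 118603876 to 118604279 (score 69.22). The next was 36 bp, on chromosome 15 at 10573008 to 10573430 (61.52). Without all regions that have any LIF+serum peak within 10 kb, 6648 remained. The typical distance to the nearest LIF+serum-only region was 131 kb at the median, and over 500 kb for 1271 regions (17.2%).

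Isolated regions also lay near each other. Another isolated region was found within 1 kb of 377 (5.11%, 4.62 to 5.64), within 10 kb of 1548 (21.0%, 20.1 to 21.9) and within 100 kb of 4768 (64.6%). Joined at gaps of up to 10 kb, the 7378 regions formed 5830 singles, 601 pairs, 84 runs of 3, 21 runs of 4 and 2 runs of 5. Singles had a median score of 66.14 and pairs one of 68.41, and a score of 100 or more was held by 14.0% of singles and 17.6% of regions in pairs. Of the 5503 shared regions, 22.8% had another shared region within 10 kb. The 2 shares are not a like comparison, because the sets differ in size. The rule also removed regions near shared ones from the isolated set only.

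The longest runs differed in peak form. The run on chromosome 11 from 97669164 to 97694504 spanned 25.3 kb and held 5 peaks of 573 to 1592 bp, scoring 50.31 to 123.33. Its nearest shared region was 12.2 kb and its nearest LIF+serum-only region 1.02 kb away. Wide peaks on this chromosome were not confined to the run. An isolated peak outside it, at 97362616 to 97364674, was 2059 bp wide (score 86.48), against a median of 455 bp over all isolated peaks. The width is therefore not given as a trait of the run, and whether it belongs to a longer segment was not tested. The run on chromosome 13 from 43678451 to 43688338 spanned 9.89 kb and held 5 narrower peaks of 313 to 541 bp, scoring 50.56 to 118.84. It lay 315 kb from a shared and 56.3 kb from a LIF+serum-only region, where the median distance of an isolated region to any region with a LIF+serum peak was 55.3 kb. Its strongest peak, at 43687431 to 43687971, was separated from the next by 14 bp, a gap that the merging rule keeps apart. No peak of either run met an ESD-EpiSC peak, which 0.230% of all isolated regions did.

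**Figure D3:**
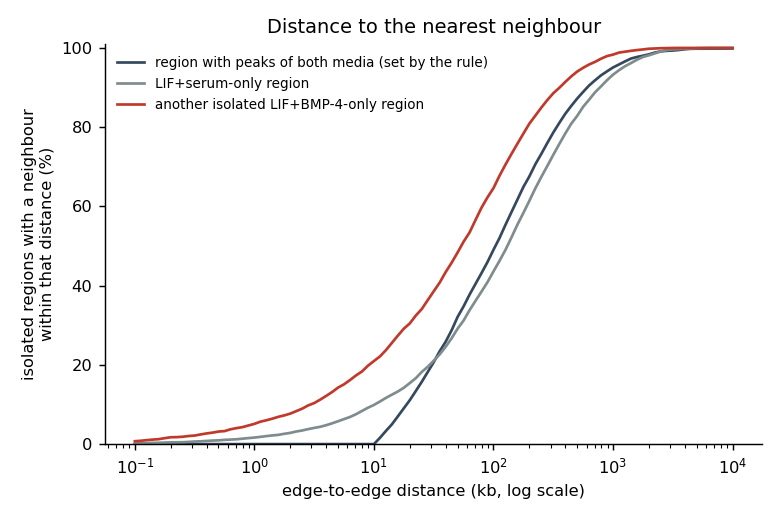
Cumulative share of the 7378 isolated BMP-4-only regions (%) with a neighbour of each kind within a given edge-to-edge distance (kb, log scale). Within 10 kb, 21.0% had another isolated region and 9.89% a LIF+serum-only region, while the curve for shared regions is 0 up to 10 kb because the rule sets it so.

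Stretches between consecutive shared regions held isolated regions more densely where the stretch was short. Stretches of 100 to 500 kb held 6.12 isolated regions per Mb, counting only the length more than 10 kb from either end, and those over 2 Mb held 1.21 per Mb. LIF+serum-only regions went the same way, with 3.08 and 0.488 per Mb of the whole stretch. At least 1 isolated region was present in 1158 of 1768 stretches of 100 to 500 kb (65.5%) and in 258 of 272 over 2 Mb (94.9%). The fullest stretch, on chromosome 7 from 71102580 to 73017886, held 19 isolated regions in 1.92 Mb, with scores of 54.08 to 229.6, and 2 LIF+serum-only regions. A stretch of 0.710 Mb on chromosome 12 from 106315482 to 107025638 held 15, a median of 9.68 kb apart, and scored 203.5 at the most. Both stretches were singled out after their values were seen.

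Few isolated regions overlapped a called SMAD1/5 peak of the ESD-EpiSC lists, which were not used by the rule. Those lists were short, so few ESC regions of any kind could overlap one of their peaks. A 1.5 h peak overlapped 11 of 7378 regions (0.149%, 0.0744 to 0.267), against 0.354% of all merged ESC regions. A 24 h peak overlapped 7 (0.0949%, 0.0382 to 0.195), against 0.185%. At either time the count was 17 (0.230%, 0.134 to 0.369), against 0.484% of all ESC regions. The share at either time was 0.999% (0.754 to 1.30) in shared regions, 0.336% (0.179 to 0.574) in LIF+serum-only regions and 0.245% (0.0667 to 0.625) in BMP-4-only regions near shared ones. The interval of the isolated regions lay below that of the shared regions and overlapped the other 2. Seen from the ESD-EpiSC lists, 12 of the 225 early peaks (5.33%, 2.79 to 9.13) and 7 of the 133 late ones (5.26%, 2.14 to 10.5) fell in an isolated region. Each of these 19 peaks lay wholly inside its region. In all, 65 of the 225 early peaks and 30 of the 133 late ones overlapped some LIF+BMP-4 peak. Isolated regions made up 50.8% of regions with a LIF+BMP-4 peak.

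Within each score class, the intervals of the isolated and shared regions overlapped. Below 100 the share with an ESD-EpiSC peak was 0.159% (0.0762 to 0.292) in isolated and 0.395% (0.190 to 0.726) in shared regions. At 100 or more the shares were 0.646% (0.260 to 1.33) and 1.51% (1.11 to 2.02). Finer classes rested on few overlapping regions. At scores of 70 to 100, an ESD-EpiSC peak was present on 6 of 2189 isolated regions (0.274%, 0.101 to 0.596) and on 4 of 1360 shared regions (0.294%, 0.0802 to 0.751). At 100 to 150 the counts were 6 of 861 (0.697%, 0.256 to 1.51) and 9 of 1436 (0.627%, 0.287 to 1.19). The shares in these 2 classes were close, but the intervals would also hold severalfold differences. In the adjoining classes the isolated regions had the lower share, with overlapping intervals. At 60 to 70 the counts were 1 of 1468 (0.0681%, 0.00172 to 0.379) and 2 of 530 (0.377%, 0.0457 to 1.36), and at 150 to 200 they were 1 of 173 (0.578%, 0.0146 to 3.18) and 11 of 680 (1.62%, 0.810 to 2.88). At 200 or more, 0 of 50 isolated regions had an ESD-EpiSC peak, which still allows 7.11% by the exact interval, against 25 of 858 shared regions (2.91%, 1.89 to 4.27). At 50 to 60, the class with the most isolated regions (2637), the shares were 0.114% (0.0235 to 0.332) and 0.626% (0.171 to 1.59), and the intervals overlapped.

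**Figure D4:**
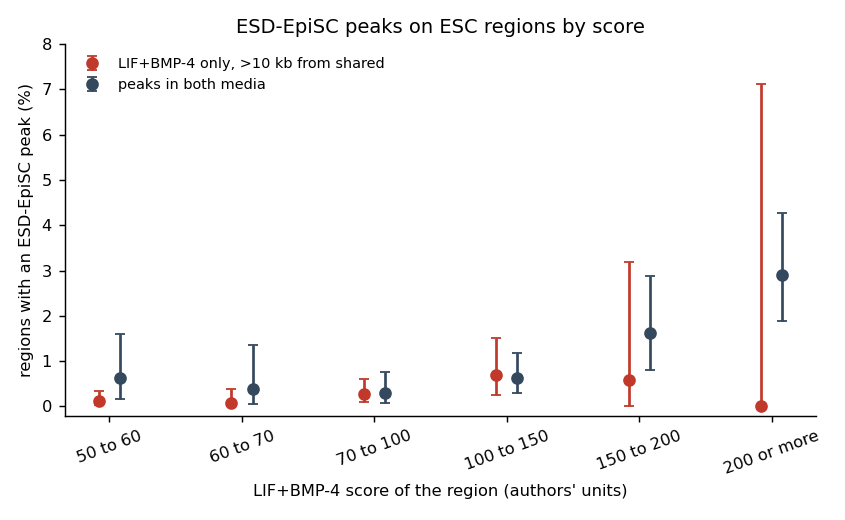
Share of isolated BMP-4-only and of shared regions (%) with an ESD-EpiSC peak at either time, by LIF+BMP-4 score class; bars are exact 95% binomial intervals over regions. The isolated regions have the higher share only from 100 to 150 (0.697% against 0.627%) and the lower share in every other class. In each class the intervals overlap, but few isolated regions with an ESD-EpiSC peak stand behind each value, so overlap does not show equal shares.

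Only 1 of the 17 regions had a peak at both times, and it was among the weakest in ESCs. This region, on chromosome 2 at 152533218 to 152533995, scored 50.76 in LIF+BMP-4, ranking 14333 of 14696. Its ESD-EpiSC peak ranked 12 at 1.5 h (score 199.9, the 268 bp from 152533313 to 152533580) and 93 at 24 h (54.41). A shared region lay 18.2 kb away. The orders of the lists were thus far apart there, with a high rank in primed cells at 1.5 h and one near the end of the list in ESCs.

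The region ranking best in ESCs among those with a 1.5 h peak was on chromosome 2 at 35535301 to 35536243 (score 174.17, rank 1283). Its 1.5 h peak scored 60.93. On chromosome 11, the region at 11925934 to 11926376 (score 110.41) held 2 peaks at 1.5 h, at 11925986 to 11926163 (63.85) and 11926170 to 11926316 (58.48). The region on chromosome 7 at 7230625 to 7231076 had a modest ESC score of 70.87 and a 1.5 h peak of 112.5, which ranked 35. It was the only other 1.5 h peak above 100 in an isolated region.

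The other regions with a 1.5 h peak scored 52.35 to 116.39 in LIF+BMP-4. They lay on chromosome 1 at 180213334 (71.73), chromosome 5 at 68088471 (53.16) and 119505371 (52.35), chromosome 7 at 6141075 (83.02), chromosome 8 at 20019721 (116.39), and chromosome 14 at 68293635 (112.37) and 120536965 (93.5). Their 1.5 h peaks scored 50.80 to 73.77, and 3 of the 7 were above 61.4, the median of that list.

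At 24 h the strongest peak in an isolated region was on chromosome 3, where the region at 18523782 to 18524373 (score 124.9) held a peak of 89.96, ranking 14 of 133. The nearest LIF+serum-only region was 1271 kb away, but a shared region, which also holds a LIF+serum peak, was 69.5 kb away. On chromosome 18 the region at 75066712 to 75067482 (120.7) held a 24 h peak of 55.80. Near the distal end of the peaks on chromosome 9, the region at 123832662 to 123834482 (108.7) was 1821 bp wide and held a 24 h peak of 428 bp (68.23). The remaining 24 h peaks lay in the regions on chromosome 4 at 118572028 (88.31), chromosome 13 at 37527951 (87.01) and chromosome 1 at 130119825 (67.85). The region on chromosome 13 lay just past the distance limit, 10.1 kb from a shared region and 3.75 kb from a LIF+serum-only one.

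Counting neighbourhoods rather than overlaps, 51 isolated regions (0.691%, 0.515 to 0.908) had an ESD-EpiSC peak within 10 kb, of which 34 did not overlap it. The same share was 1.83% (1.24 to 2.61) for BMP-4-only regions near shared ones and 1.80% (1.46 to 2.19) for shared regions. Both intervals lay above that of the isolated regions. For LIF+serum-only regions it was 1.03%, with an interval whose lower end, 0.739%, fell inside that of the isolated regions. Position near shared regions is part of the rule, so a neighbourhood of 10 kb around a BMP-4-only region near a shared one can also reach ESD-EpiSC peaks on the shared region itself.

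Isolated regions made up a similar part of the LIF+BMP-4 regions on most chromosomes. Their share of regions with a LIF+BMP-4 peak was 50.6% over the 19 autosomes, and it ran from 47.5% (44.5 to 50.5) on chromosome 8 to 58.4% (53.6 to 63.0) on chromosome 18. Chromosome X stood apart, with 94 of 128 regions isolated (73.4%, 64.9 to 80.9), 31 shared and 3 near a shared one. Called regions were sparse there. Between the first and last peak there were 0.583 isolated regions per Mb, against 2.20 (chromosome 12) to 4.24 (chromosome 11) on the autosomes. The density of shared regions on chromosome X was 0.192 per Mb. Shared regions made up 24.2% of the chromosome X regions with a LIF+BMP-4 peak, against 32.7% (chromosome 18) to 41.4% (chromosome 7) on the autosomes. What set the larger isolated share on chromosome X was not tested.

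Peak width differed by chromosome more than the score did. On chromosome 8 the 519 isolated peaks had a median width of 539 bp (521 to 559), and on chromosome X the 94 had 360.5 bp (351 to 385). On the 18 other chromosomes the medians lay between 434 bp (chromosome 10) and 474 bp (chromosome 11). The median score was 67.44 on chromosome 8 and 61.34 on chromosome X, against 66.43 over all isolated regions. Among isolated peaks scoring under 70, the medians were 491 bp (469 to 516) on chromosome 8 and 347 bp (329 to 358) on chromosome X, with 389 to 430.5 bp elsewhere. The difference was not confined to isolated regions. LIF+BMP-4 peaks in shared regions had a median of 666 bp (631 to 687) on chromosome 8, against 528 to 593 bp on the 18 other chromosomes and 518.5 bp (415 to 607) on chromosome X. In the LIF+serum library the medians were 976 bp (957 to 1001) on chromosome 8, 658 bp (616 to 713) on chromosome X and 770 to 839 bp elsewhere. Chromosomes 8 and X were picked out with these widths known, and what set the widths was not tested.

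**Figure D5:**
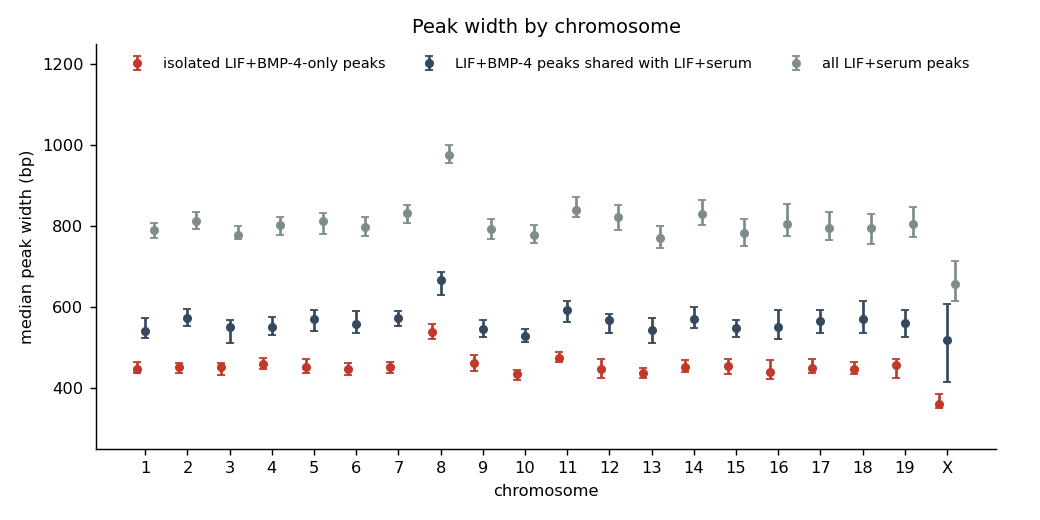
Median peak width (bp) by chromosome for isolated BMP-4-only peaks, LIF+BMP-4 peaks in shared regions and all LIF+serum peaks; bars are exact 95% intervals of the median over peaks, and the axis does not start at 0. Chromosome 8 has the widest median in all 3 sets (539, 666 and 976 bp), and chromosome X has the narrowest (360.5, 518.5 and 658 bp), though the interval for shared peaks on X reaches 607 bp.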

How the data were processed

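Of 6 libraries, the 4 immunoprecipitated ones were analysed, and the 2 input libraries were not analysed here. The authors deposited 1 peak list per library with a score per peak in the last of 5 columns, and its scale is not stated. Per the submitters' processing notes, MACS 1.4.2, Bowtie 1.1.0 and Picard were used with mm9, in roles that are not stated; read filters, controls and depth are likewise not stated. A difference in depth or control between the ESC libraries could leave peaks present in 1 list only. Whether this applies to the isolated regions was not tested.

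ESC peaks were merged where they overlapped or touched, distances were measured edge to edge, and an ESD-EpiSC peak counted from 1 bp of overlap. Shares carry exact Clopper-Pearson 95% binomial intervals, and medians carry order-statistic 95% intervals. Both treat regions as independent and cover counting error only. Positions are 1-based. Python 3.11.15, pandas 2.3.3, scipy 1.17.1 and matplotlib 3.10.9 were used. The merging and distance code was tested on simulated data with known classes.

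The members, settings and lists were chosen with earlier results of these data known. Named regions are the 12 highest-scoring members, all with an ESD-EpiSC peak, the extremes of width and distance, the longest runs, and those beside the limits of 10 kb and 100. Planned comparisons with genes, gene lists, promoters and sequence were not run because no mm9 annotation or genome was used.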

Additional observations from a re-analysis of the deposited data

How the results depend on the processing

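The size of the set moved most with the score limits of the lists, and less with the distance set by the rule. It was 7952, 6556 and 5013 for distances of over 5, 20 and 50 kb. With only peaks scoring 100 or more in both ESC lists, 2707 isolated regions were found, of which 1430 (52.8%) overlapped a LIF+serum peak scoring under 100 and 1084 were members under the rule as given. In that set the median width was 610 bp, the median gap between neighbours 375128 bp and the share with an ESD-EpiSC peak 0.628%. With the LIF+BMP-4 list reduced to its 9387 highest-scoring peaks, the count was 3929, the share scoring 100 or more 28.7%, the median width 513 bp, the median gap 262388 bp and the ESD-EpiSC share 0.382%. By construction both settings drop low-scoring peaks. A distance of over 20 kb gave a median width of 450 bp, and one of over 50 kb gave 444 bp. The median gap between neighbouring members was 131850 bp, and it moved to 115528, 160075 and 229067 bp for distances of over 5, 20 and 50 kb. It was 144271 bp with peaks up to 1 kb apart merged and 155147 bp at over 10 kb from every LIF+serum peak. The other 30 of 46 recomputed values stayed within the 95% interval of the main value, or within 1.5 times for counts; among them were all those without chromosomes X and Y and unplaced sequences and all those in which sharing needed 50% of the shorter peak. No paired analysis was possible because the groups have a single library apiece. Unknown depth limits every statement on absent peaks.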

Other observations

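At the distal end of the chromosome 9 peaks, 3 isolated BMP-4-only regions lay within 12.3 kb and were all wide. They lay at 123832662 to 123834482 (1821 bp, score 108.7), 123840866 to 123842013 (1148 bp, 247.18) and 123842849 to 123844943 (2095 bp, 254.51). The last 2 were 835 bp apart and ranked 522 and 480, in that order, in the LIF+BMP-4 list. From the first of the 3, the nearest LIF+serum-only region lay 1415 kb away and the nearest shared region 368 kb away. This group was picked with its values known, and sequence was not examined there.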
